A study of Mus musculus with 8 samples.

Results

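Dense clusters of acetylated histone H3 (H3ac) intervals were taken from the group list of the Gel treatment. Intervals under 100 bp were dropped, and the others on chromosomes 1 to 19, X and Y were stitched wherever the gap between them was 12.5 kb or less. A stitched unit was a dense cluster when it held 8 or more intervals, none of them 4000 bp or longer. This gave 667 dense clusters among 17489 stitched units, holding 7697 of the 42334 Gel intervals. The study mapped H3ac by ChIP-seq (sequencing of immunoprecipitated chromatin) in the mouse macrophage-like line RAW 264.7, for work on a nanozyme hydrogel meant for diabetic wounds. Both groups were of this 1 line: Gel with 2 immunoprecipitated libraries, and CuNZ@Gel, the gel with the nanozyme, with 2. The labels describe exposure to gel extracts for 48 h, but the protocol text common to both groups names just the CuNZ@Gel extracts, and what the Gel cells received is known from their treatment label alone. The 4 input libraries were not analysed here. No label ties the libraries of a group to different cultures, and the spread between them can be technical. Values of a pair of libraries are given below with replicate 1 first.

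Acetylation of histone H3 tails loosens the contact of histones with DNA and recruits proteins that read the mark. It is written by histone acetyltransferases, removed by histone deacetylases, and found at active promoters and enhancers. Groups of enhancers close together, stitched in the same way, are the starting point for calling super-enhancers, which in macrophages often lie near genes for lineage factors and inflammatory mediators. Here no ranking by signal was made, and promoters and enhancers were not told apart. All positions are on GRCm39, in 1-based coordinates. No gene is named, the macrophage label was not checked against marker genes and no sequence is printed, because no annotation or genome of this build was used here.

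The members were chosen from Gel values alone, so every Gel value below is a description of the choice, and no test was made between the groups. An interval of the Gel list has a peak in both Gel libraries by construction, and the CuNZ@Gel libraries did not enter the choice. The files hold no read totals. The commonest background per peak, in fragments as recovered from the authors' fold and p, was 4.62 and 4.28 for Gel but 3.45 and 2.46 for CuNZ@Gel. The lists held 58612 and 60483 peaks for Gel and 40075 and 34693 for CuNZ@Gel. This background is no direct count of reads, and it was lower in both CuNZ@Gel libraries. A scaling to the lowest background was made for counts of peaks and of intervals, which matches this measure alone; for covered bases its part was not tested.

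A typical dense cluster was a run of 10 H3ac intervals over 40051 bp (medians). The number of intervals ranged from 8 to 34, and the span from 10443 to 169703 bp. Intervals filled a median of 19.7% of the span, with a lowest value of 6.34% and a highest of 63.2%. The widest interval of a cluster had a median of 2178 bp and took a median of 27.0% of the interval bases, and the rest was shared among the others. The median gap between neighbouring intervals was 2111 bp. The clusters spanned 28.7 Mb in all, of which 5.69 Mb lay under intervals. The individual intervals were close in width to those elsewhere and slightly weaker. Their median width was 469 bp against 498 bp for the other Gel intervals, and the median of the authors' fold enrichment was 4.63 against 4.99. An interval is a piece shared by 2 peaks, so 1 wide peak can give several intervals. Of the 7697 intervals, 963 shared their Gel replicate 1 peak with another interval, and 76 clusters held fewer than 8 separate peaks of that library.

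Fewer bases of the dense clusters lay under peaks in CuNZ@Gel than in Gel. Gel peaks covered 6.94 and 7.07 Mb of the clusters, and CuNZ@Gel peaks 4.21 and 3.56 Mb. Both CuNZ@Gel libraries were below both Gel libraries, and the 2 Gel libraries lay closer together than the 2 CuNZ@Gel libraries. The means were 7.004 ± 0.0867 Mb in Gel and 3.89 ± 0.465 Mb in CuNZ@Gel (SD, n = 2), so the CuNZ@Gel mean was 55.5% of the Gel mean. Outside the dense clusters, the stitched units kept 62.3%. The 2 percentages are not directly comparable, since a unit of 1 interval is covered in full in both Gel libraries, while a cluster also holds peaks between its intervals. Within the intervals alone, CuNZ@Gel peaks covered 61.0% of the bases in dense clusters and 65.1% elsewhere. Peaks in the clusters numbered 8731 and 8821 in Gel and 6167 and 5314 in CuNZ@Gel. The CuNZ@Gel mean of 5740.5 ± 603 was 65.4% of the Gel mean of 8776 ± 63.6 (SD, n = 2). Over all stitched units the peak number was 71.7% of Gel, and outside the dense clusters it was 73.2%. Stitched units lie only where both Gel libraries have a peak, which raises these baselines. They held 86.4% and 85.1% of all bases under peaks in Gel, but 91.6% and 93.4% in CuNZ@Gel. Against the whole lists the dense clusters lost little more than the rest. Their share of all bases under peaks was 16.403% and 16.355% in Gel and 16.098% and 15.993% in CuNZ@Gel. With each library's list cut by p to the length of the shortest, the mean peak number in the clusters was 96.2% of Gel and the covered bases were 64.2%. With the background of every library scaled to the lowest, the peak number was 73.5% of Gel.

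Cluster by cluster, the order of the groups was nearly always the same. In 663 of 667 dense clusters, or 99.4%, each CuNZ@Gel library had fewer bases under peaks than either Gel library, where the share over all stitched units was 93%. None had more bases in both CuNZ@Gel libraries, against 0.0629% of all units. The 8767 units of a single interval could not have more, since both Gel libraries cover such an interval in full. The number of peaks was lower in both CuNZ@Gel libraries in 500 of the 667 clusters, against 33.4% of all units. It was higher in both in 4 clusters, against 3.43% of all units. The share with fewer bases was larger in units of more intervals even outside the dense clusters. It was 90.2% for single intervals, 94.4% for units of 2 or 3 and 98.3% for units of 4 to 7. The share with fewer peaks was 26.3%, 32.3% and 50.7% in these sizes, in the same order. In the 89 units of 8 or more with an interval of 4000 bp or longer, 98.9% had fewer bases and 60.7% fewer peaks. A single interval has just its own peak in each Gel library, so there fewer means no peak in either CuNZ@Gel library.

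The retention of a cluster is here its mean bases under CuNZ@Gel peaks as a percentage of its mean bases under Gel peaks. Its median over clusters was 55.2%, with quartiles of 47.3% and 63.0%. The lowest was 14.9% and the highest 93.5%. Retention was under 25% in 14 clusters, under 50% in 227, from 50% to under 75% in 407 and 75% or more in 33. No cluster reached 100%. The 2 CuNZ@Gel libraries ranked the clusters alike: the percentages computed from replicate 1 and from replicate 2 alone, over the same Gel denominators, had a Spearman correlation of 0.758 and a Pearson correlation of 0.784 across the 667 clusters. These are descriptions across regions of the same libraries.

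**Figure D1:**
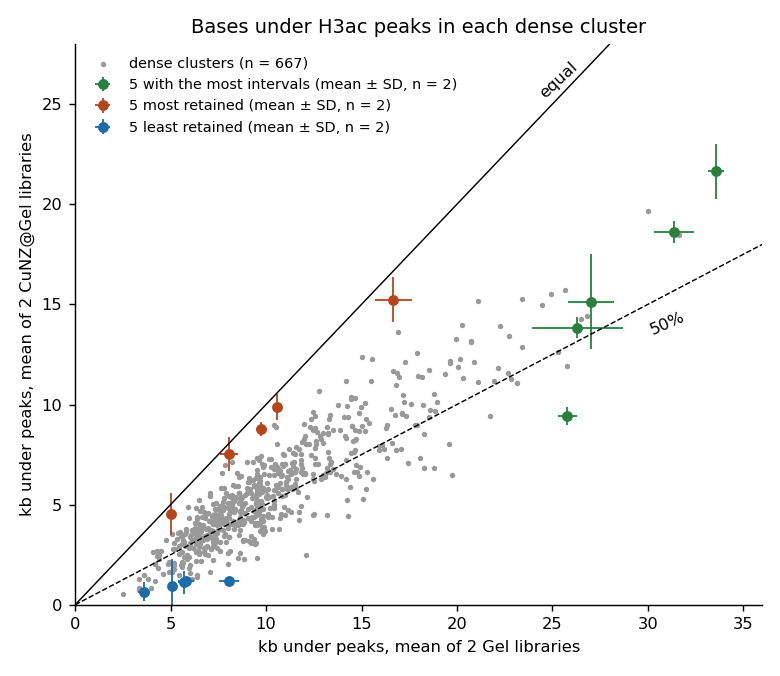
Bases under H3ac peaks in each of the 667 dense clusters, as the mean of the 2 Gel libraries (x axis, kb) against the mean of the 2 CuNZ@Gel libraries (y axis, kb). Coloured points with error bars (SD, n = 2) are the clusters named by rule, the solid line marks equal values and the dashed line 50%; all points lie below the solid line, with retention from 14.9% to 93.5%.

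**Figure D2:**
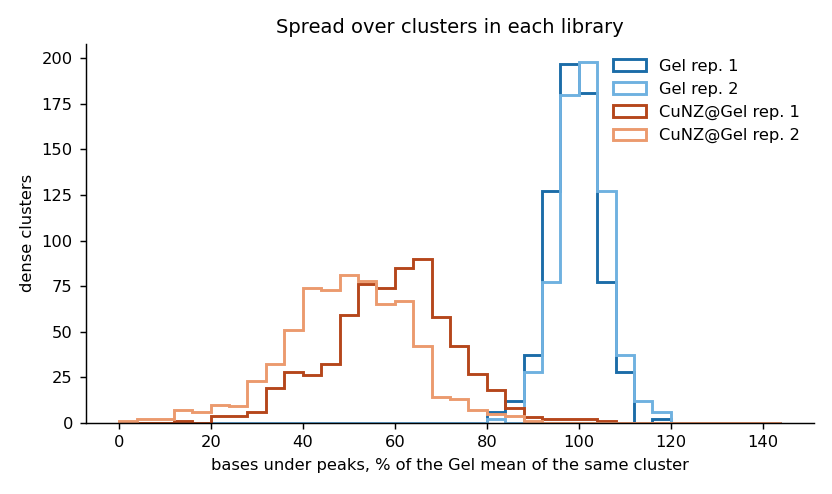
Histogram of bases under peaks in each of the 4 libraries, as a percentage of the Gel mean of the same cluster (x axis), against the number of dense clusters (y axis). The Gel libraries are centred on 100% by construction, and both CuNZ@Gel libraries lie lower and spread more widely, replicate 2 below replicate 1.

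Clusters of stronger intervals had the higher retention, and the number of intervals made little difference. In the 167 clusters with the lowest retention, up to 47.2%, the median of the clusters' median fold enrichment was 4.07, and in the 166 with the highest, from 63.1%, it was 5.75. The widest interval had a median of 1748 bp in the former and 2519 bp in the latter. Intervals filled 15.5% and 24.8% of the span. The number of intervals had medians of 11 and 10. Across the 667 clusters, retention had a Spearman correlation of 0.588 with the median Gel summit height of the intervals, of 0.401 with the share of the span filled and of -0.0720 with the number of intervals. The Pearson values were 0.493, 0.340 and -0.0446. All of these share the Gel libraries. Clusters of 8 or 9 intervals had a median retention of 55.6%, and the 12 clusters of 25 or more had 57.2%.

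At the level of single intervals, 3969 of the 7697 in dense clusters, or 51.6%, had no overlap with the CuNZ@Gel group list. The share over all Gel intervals was 46.5%, and it was 47.8% for single intervals, 42.3% in units of 2 or 3, 47.1% in units of 4 to 7 and 46.5% in the 89 units of 8 or more that held an interval of 4000 bp or longer. An interval without this overlap was not always without a peak: 49.3% of the intervals in dense clusters met a peak in both CuNZ@Gel libraries, 15.1% in replicate 1 only, 5.96% in replicate 2 only and 29.7% in neither. Over all Gel intervals these shares were 54.1%, 13.9%, 5.87% and 26.1%. The intervals without overlap were weak and narrow, with a median fold enrichment of 3.70 and a median width of 286 bp, against 7.66 and 940 bp for those that were kept. With lists of equal length, 31.4% of the intervals in dense clusters had no overlap, against 28.5% of all Gel intervals. With summit fragments and background of every library scaled to the lowest library background, and peak widths left as deposited, it was 46.1%, where all Gel intervals gave 41.5%.

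Between peaks of like fold enrichment, the shares without CuNZ@Gel overlap were close inside and outside dense clusters, but between peaks of like width they were higher inside. For this comparison, pieces of 1 Gel replicate 1 peak were counted once, and all 40500 peaks were put into 10 equal groups by the authors' fold enrichment. In the weakest group, with folds up to 3.03, 91.9% of the peaks in dense clusters and 91.8% of the others had no CuNZ@Gel overlap. In the fifth group the shares were 59.4% and 59.4%, and in the seventh group, with folds from 5.76 to 7.48, they were 14.8% and 17.8%. None of the 568 peaks of dense clusters in the strongest group was without overlap, and 0.0862% of the others were. The difference between dense clusters and the rest was at most 3.56 percentage points in any group, the one with folds from 3.86 to 4.27. In each of these 10 groups the peaks of dense clusters were also the wider ones. Their median width was 487.5 against 414 bp in the fifth group and 774.5 against 696 bp in the seventh. Grouped in the same way by width, with fold not matched, they were more often without overlap than the others in each of the 10 groups. The difference was 0.508 to 10.8 percentage points. The difference was widest at 666 to 891 bp, with 30.3% against 19.5%, followed by 14.2% against 7.38% at 891 to 1234 bp. By summit height in Gel, it ran from -1.31 to 2.87 points. Dense clusters held more of the weak peaks: 11.9% of their peaks fell in the weakest group and 7.89% in the strongest, against 9.58% and 10.5% of the other peaks.

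Within a cluster the loss followed the rank of the peaks by fold enrichment. The leading peak, with a median fold of 18.003 and a median width of 1923 bp, was without CuNZ@Gel overlap in 7 of 667 clusters. The share was 7.80% for the second peak, 17.5% for the third, 34.2% for the fourth and 43.8% for the fifth. It reached 77.0% for the eighth, at a median fold of 3.56, and 82.3% for all lower ranks. In the 7 clusters that lost the leading peak, that peak was weak, with a median fold of 5.70, and the median retention was 22.1%. Position went with smaller differences. The first and last peaks of a cluster were without overlap in 52.5% and the inner ones in 49.5%. Peaks within 2 kb of the leading one were without overlap in 46.0%, and those further away in 54.3% to 56.9%, with median folds of 4.81 and of 4.21 to 4.27.

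**Figure D3:**
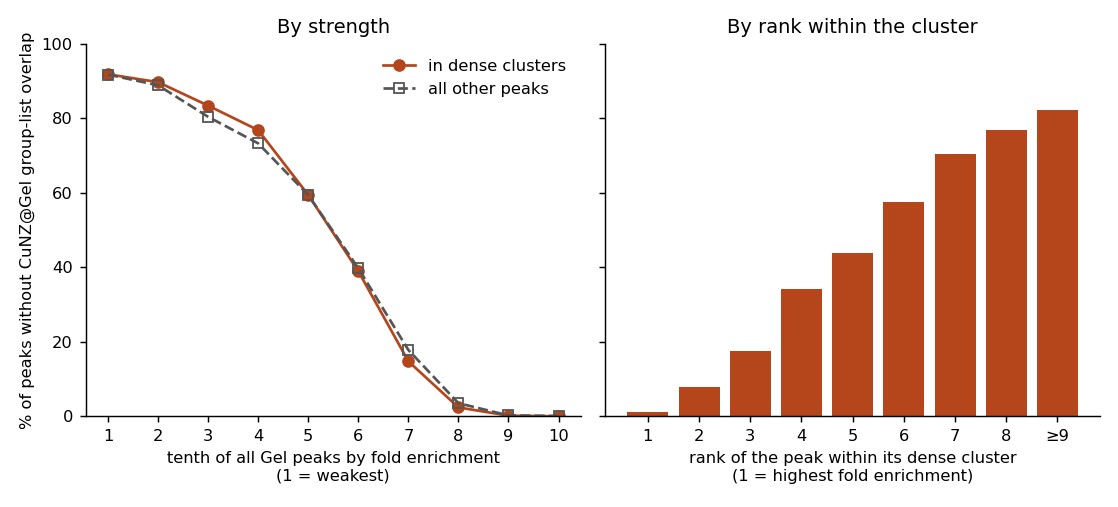
Percentage of Gel peaks without overlap with the CuNZ@Gel group list (y axis), by 10 equal groups of fold enrichment over all Gel peaks, for dense clusters and for all other peaks (left) and by rank within the dense cluster (right). In the left panel the 2 curves lie within 3.56 percentage points of each other; in the right panel the share rises from 7 of 667 at rank 1 to 82.3% at rank 9 and below.

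Most clusters lost some of their intervals and kept others. All intervals were without CuNZ@Gel overlap in 3 clusters, where this held for 29.3% of all stitched units, and all were kept in 2, against 36.7% of all units; most stitched units are single intervals, for which there is no outcome in between. Where Gel had a median of 10 intervals per cluster, CuNZ@Gel had a median of 6. When the CuNZ@Gel intervals inside each cluster were stitched with the same gap, they lay in 1 run in 343 clusters, in 2 runs in 238 and in 3 or more in 83. A run can be as small as 1 interval, so 1 run does not mean that a cluster stayed whole. In 130 clusters, or 19.5%, a run still held 8 or more intervals. Of the 4416 CuNZ@Gel intervals inside the clusters, 132 or 2.99% had no overlap with the Gel list, near the 3.98% of all CuNZ@Gel intervals. The clusters were chosen for many Gel intervals, which favours such overlap.

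The least retained cluster lay at chr5:136524591-136564641. It held 11 intervals, and peaks covered 8449 and 7691 bp of its span in the Gel libraries against 1275 and 1130 bp in CuNZ@Gel. The groups were far apart, at 8070 ± 536 and 1203 ± 103 bp (SD, n = 2). The Gel libraries had 15 peaks each and the CuNZ@Gel libraries 4 and 5. None of the 11 intervals overlapped the CuNZ@Gel list, although 5 of them met a peak of a CuNZ@Gel library, 1 of these in both. Its strongest interval had a fold enrichment of 6.41, with 35 and 31 summit fragments in Gel, 13 in CuNZ@Gel replicate 1 and no peak in replicate 2.

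The second least retained cluster, at chr15:64128256-64151123, had 3363 and 3819 bp under Gel peaks and 981 and 311 bp under CuNZ@Gel peaks. The third, at chr11:80367548-80400369, had 5141 and 4959 bp against 1910 bp in CuNZ@Gel replicate 1. It was the 1 cluster with no peak at all in CuNZ@Gel replicate 2, and its retention of 18.9% rests in part on that library. The fourth, at chr4:149120454-149165717, had 5477 and 5880 bp against 1520 and 717 bp. Of its 10 intervals only the strongest, 1443 bp wide with a fold of 8.01, overlapped the CuNZ@Gel list. In the fifth, at chr2:29539567-29569620, the values were 5515 and 6108 bp against 1307 and 1070 bp. In all 5 the groups did not overlap, and the strongest interval had a fold of 5.16 to 8.01, where the median over dense clusters was 18.003.

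The most retained cluster lay at chr4:141263249-141300796, with 10441 and 10711 bp under Gel peaks and 10342 and 9427 bp under CuNZ@Gel peaks. All of its 11 intervals overlapped the CuNZ@Gel list, and its retention was 93.5%. The groups were close, and Gel replicate 1 exceeded CuNZ@Gel replicate 1 by less than the spread between the CuNZ@Gel libraries. The strongest interval, 1967 bp wide with a fold of 30.6, had 171 and 174 summit fragments in Gel and 108 and 73 in CuNZ@Gel. As multiples of the library background this was a summit height of 37.0 and 40.7 against 31.3 and 29.7. The second most retained, at chr4:149248263-149276707, had 8417 and 7748 bp against 8120 and 6919 bp, so the groups overlapped. The third, at chr19:9913120-9976618, had 15978 and 17354 bp against 16047 and 14433 bp, and the groups overlapped there too.

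The fourth most retained cluster, at chr11:3072789-3096357, stood apart from the others in its background. It had 5015 and 5047 bp under Gel peaks and 5266 and 3806 bp under CuNZ@Gel peaks. The median local background of its peaks was 12.1 times the library background in both Gel libraries and 10.7 and 12.3 times in CuNZ@Gel, and the median fold enrichment of its intervals was only 2.22. In 659 of the 667 clusters this median was at most 1.5 times in Gel replicate 1, and the retention of all clusters together was 55.4% without the other 8. The fifth, at chr17:34845292-34867794, had 9976 and 9547 bp against 9042 and 8523 bp, a small difference with no overlap of the groups. Besides the clusters named above as overlapping and the chromosome 11 one, whose groups overlapped as well, a cluster at chr8:94890037-94918314 was the only other whose groups overlapped, with 8079 and 8309 bp against 8242 and 6052 bp; it was picked after its values were seen.

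**Figure D4:**
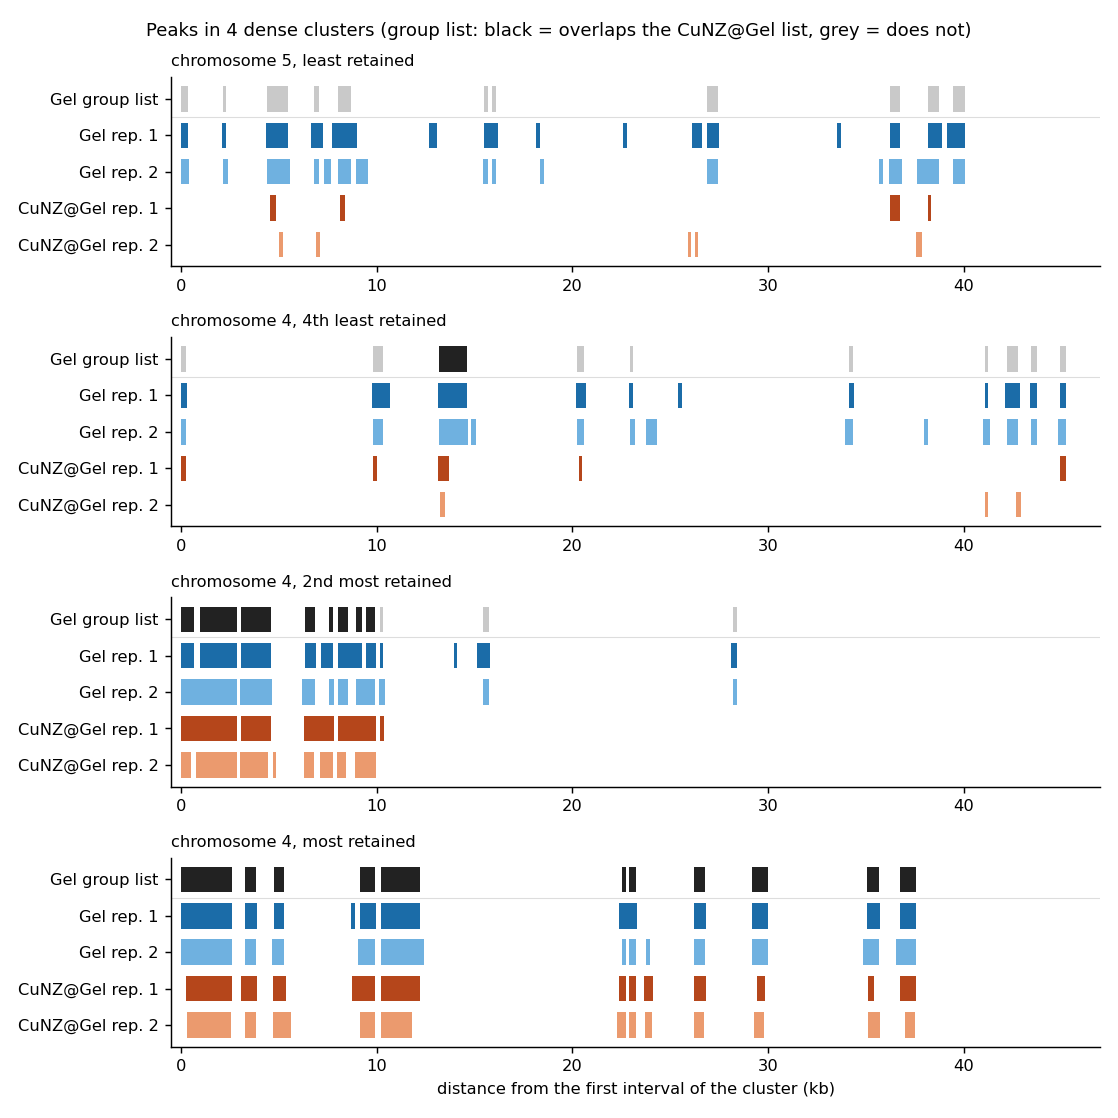
Peaks in 4 dense clusters, by distance from the first interval (x axis, kb), in the Gel group list and the 4 libraries (rows). Group-list intervals are black where they overlap the CuNZ@Gel list and grey where they do not: 0 of 11, 1 of 10, 8 of 11 and 11 of 11 from top to bottom. Bars show the extent of peaks and not their height.

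The clusters with the most intervals were intermediate. The largest, 34 intervals at chr8:121390025-121559727, had 27858 and 26165 bp under Gel peaks against 16808 and 13457 bp, and 18 of its intervals had no CuNZ@Gel overlap. The cluster of 30 intervals at chr15:79896220-79990084 had 30626 and 32122 bp against 19002 and 18211 bp. Another of 30, at chr10:79852512-79938121, had 24607 and 27974 bp against 14196 and 13471 bp. The cluster of 29 at chr9:107399075-107522370 covered the most bases of these 5, with 33257 and 33853 bp against 22620 and 20656 bp. In each of these 4 the groups did not overlap, and the retention, from the mean of both CuNZ@Gel libraries, was above 50%. The cluster of 28 at chr11:117823459-117906837 had 25424 and 26151 bp against 9734 and 9106 bp. Its retention of 36.5% was the lowest of these 5, the others being at 52.6% to 64.5%, although its strongest interval had a fold of 22.8.

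Summit height gave a second view of the intervals that were kept. It is the number of fragments at the summit divided by the library background, which adjusts for that background but not for the strength of the immunoprecipitation. Each interval takes the tallest peak that overlaps it in a library, and the summit of that peak can lie outside the interval. Of the 3796 intervals of dense clusters with peaks in all 4 libraries, 2013 or 53.0% had a lower summit in each CuNZ@Gel library than in either Gel library, where the share over all Gel intervals with 4 peaks was 56.4%. The height was higher in both CuNZ@Gel libraries in 295 or 7.77%, against 6.86% of all. The median ratio of the CuNZ@Gel to the Gel mean height was 0.841 in dense clusters and 0.821 elsewhere. Intervals that had lost their CuNZ@Gel peak do not enter, so these ratios leave out the weakest.

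Heights and covered bases did not rank the clusters alike. In the 433 clusters with at least 5 such intervals, the median CuNZ@Gel height per cluster was 83.6% of Gel, with quartiles of 77.9% and 90.7%. It had a Spearman correlation of 0.0411 and a Pearson correlation of 0.149 with retention across these clusters. This percentage, the median over intervals of the ratio of group means, was below 60% in 2 clusters and above 100% in 36. The values per library below are medians of each library's own ratios and need not average to it. The clusters at both ends were picked by their values. The lowest was at chr4:134178856-134239605, where the median height over 7 intervals was 57.5% and 50.4% of the Gel mean in the CuNZ@Gel libraries. Its bases were 11644 and 10976 bp against 5165 and 4107 bp. The next lay at chr13:23866786-23953638 with 20 intervals, 12 of them with peaks in all 4 libraries, at 56.0% and 55.6% of the Gel height. Of those 12, 11 were lower in both CuNZ@Gel libraries. The interval with the highest Gel summits there, from 23929663 to 23930562, had 142 and 107 summit fragments in Gel against 43 and 31 in CuNZ@Gel, and it shares its Gel replicate 1 peak with the interval before it. A further cluster on the same chromosome, at chr13:22205476-22235746, was also among the 5 lowest, at 61.3% by the group means and 59.1% and 54.8% in the single libraries, over 9 intervals. Both chromosome 13 clusters had strong intervals, with median folds of 9.80 and 9.26. Their retention was 52.7% and 48.6%, below the median of 55.2% over all dense clusters but above the lower quartile of 47.3%.

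The highest ratio of summit heights belonged to the second most retained cluster, at chr4:149248263-149276707. Over its 8 intervals with peaks in all 4 libraries, the median height was 158% and 164% of the Gel mean in the CuNZ@Gel libraries, and 7 of the 8 were higher in both CuNZ@Gel libraries. Its main interval, 1881 bp wide, had 93 and 82 summit fragments in Gel and 93 and 68 in CuNZ@Gel. Before scaling, the fragment numbers of the 2 groups thus overlapped, and as heights they were 20.1 and 19.2 against 27.0 and 27.6. The peaks that met a 226 bp interval further along had 26 and 25 summit fragments in Gel and 56 and 38 in CuNZ@Gel. These were higher in CuNZ@Gel without any scaling. Both CuNZ@Gel peaks begin before this interval, and their summits may lie outside it. Several groups of these intervals lie in the same CuNZ@Gel peak and share its summit, so the 8 are not separate readings. The 3 intervals at the far end, all with folds of 4.22 or less, had no overlap with the CuNZ@Gel list. In the cluster at chr12:86837385-86889728, also among the 5 highest, 5 of 9 intervals were higher in both CuNZ@Gel libraries and none was lower. Its median heights were 112% and 113% of Gel, while its bases were still lower, with 11560 and 12125 bp against 7284 and 7775 bp.

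**Figure D5:**
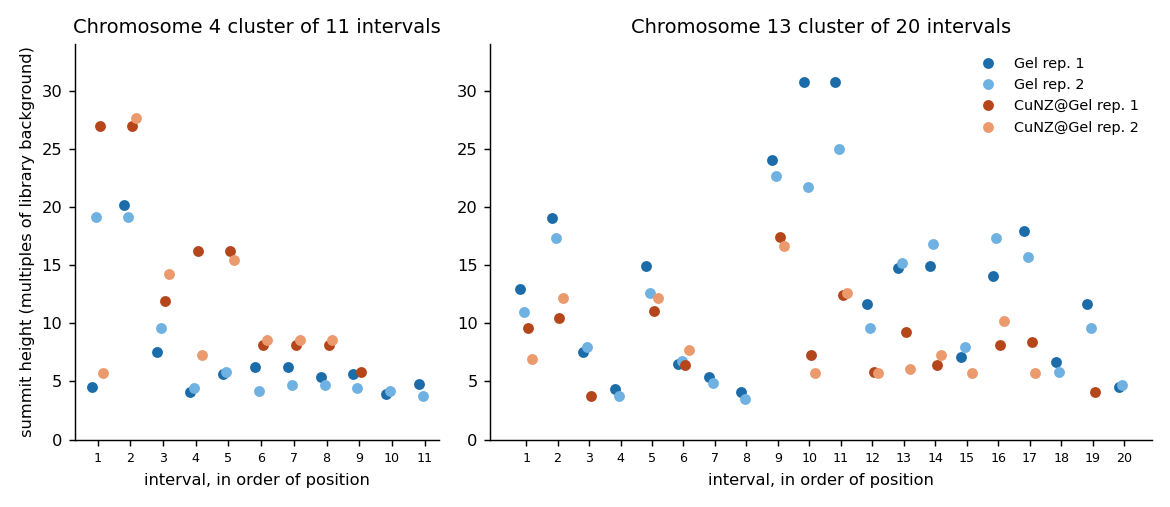
Summit height of each interval (y axis, multiples of the library background) in the 4 libraries, by order of position (x axis), for the chromosome 4 cluster with the highest and a chromosome 13 cluster with the second lowest ratio of CuNZ@Gel to Gel height. A missing point means no peak in that library. In the left panel 7 of 8 intervals with 4 points are higher in both CuNZ@Gel libraries, and in the right panel 11 of 12 are lower. Intervals that lie in the same peak share its summit and are not separate readings.

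The order of the groups was the same in clusters chosen from other lists. Clusters picked by the same rule from the peaks of Gel replicate 1 alone numbered 1322. In these, Gel replicate 2, which had no part in the choice, covered 97.0% of the bases of replicate 1. The CuNZ@Gel libraries covered 59.4% and 49.9% of the bases of Gel replicate 2. Clusters picked from Gel replicate 2 numbered 1350, and there Gel replicate 1 covered 91.9% of its bases, and the CuNZ@Gel libraries 60.7% and 51.1% of those of Gel replicate 1. In the opposite choice, the rule applied to the CuNZ@Gel group list gave 196 clusters, of which 131, or 66.8%, overlapped a dense Gel cluster and 36 of the others a Gel unit of 8 or more with a wide interval. They covered 2.30 and 2.31 Mb in Gel and 1.71 and 1.53 Mb in CuNZ@Gel, so the Gel libraries had more bases under peaks in clusters chosen from CuNZ@Gel too, with a CuNZ@Gel mean of 70.2% of Gel.

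Dense clusters were spread unevenly over the chromosomes. Chromosome 11 had the most, with 79, followed by chromosome 4 with 63 and chromosome 8 with 51, and chromosome X had 1. They held 26.7% of the Gel intervals of chromosome 15 and 25.8% of those of chromosome 11, but 6.84% of those of chromosome 16 and 1.80% of those of X. Among chromosomes with at least 10 clusters, median retention ran from 50.8% on chromosome 15, over 39 clusters, to 63.3% on chromosome 19, over 19. The median fold of the cluster peaks was 4.27 on chromosome 15 and 5.16 on chromosome 19. Fold and retention did not go together on every chromosome. The median fold was also 5.16 on chromosome 13, with a median retention of 52.7%, and 3.99 on chromosome 3, with 56.7%.

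Values just inside and just outside the limits of the rule are given here as a description. Units of 7 intervals, just outside, had a median retention of 55.0% and 49.6% of intervals without CuNZ@Gel overlap, and clusters of 8 had 57.0% and 49.2%. The 54 clusters whose widest interval was 3500 to under 4000 bp had a median retention of 57.7%, and the 32 units just outside, with a widest interval of 4000 to 4500 bp, had 66.7%.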

How the data were processed

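Tools named in the submitters' processing notes are MACS2 2.2.8, SAMtools 1.17, deepTools 3.5.6 and fastp, with build GRCm39. How reads were aligned and with which options peaks were called is not stated there. Every deposited peak carries the authors' score, their fold enrichment as a ratio to background, and −log10 values of p and q. A check of the deposited files showed that peaks are listed per library and that 100% of the intervals of a group list are the intersections of its 2 library lists, with the values of replicate 1.

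Bases and peaks inside each cluster span were counted in Python 3.11.15 (pandas 2.3.3, numpy 2.4.6), with any overlap of 1 bp as overlap. Summit fragments and background were solved from fold and p at a relative tolerance of 0.0001, which succeeded for 100% of peaks. This step, the stitching with the choice of clusters, and the counts of bases and peaks were tested on simulated data. The other steps were not. No test was made. The members, lists and rules were chosen with earlier results of these data known. Clusters named by rule are the 5 with the most intervals, the 5 most and the 5 least retained. The planned gene lists and marker counts were not run, since the gene table given is of GRCm38 and coordinates were not converted.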

Additional observations from a re-analysis of the deposited data

How the results depend on the processing

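No paired analysis was possible because the labels give replicate numbers within each group and tie no Gel library to a CuNZ@Gel library. No model or test was fitted between the groups, a choice that follows from how the clusters were selected. Settings scaled to the lowest background, with 8 or more separate Gel replicate 1 peaks and with a limit on local background were added after seeing the data. CuNZ@Gel means stayed below Gel means in the 17 alternatives run for covered bases and the 9 run for peaks. Of all 67 alternatives, which also cover the other results, 24 lay outside the range set around the main value. That range differed between results. For the shares of intervals and of clusters it was an exact 95% binomial interval, which counts members of the same libraries as independent. For bases and peaks it was the SD between the CuNZ@Gel libraries, and for the number of clusters a fixed factor. The count of 24 thus mixes unlike limits and is no test. These 24 are among the values given next. The share of intervals without overlap, 51.6%, was 65.3% when 50% of the interval had to be covered, 46.3% at a −log10 q of 5 or more, 46.1% scaled to the lowest background, 31.4% with lists of equal length, 49.9% with a 25 kb gap, 53.6% with no width minimum, 50.4% with 6 or more intervals, and 35.6% to 58.5% without any 1 library. Leaving out a library of a group replaces the group list by the whole list of the other library. Covered bases, 55.5% of Gel, were 64.2% with equal list length, 70.2% in clusters from the CuNZ@Gel list and 50.8% to 60.2% without any 1 library. Peaks, 65.4% of Gel, were 73.5% scaled to the lowest background, 96.2% with lists of equal length, and between 60.6% and 70.3% when 1 library was left out. Clusters lower in both CuNZ@Gel libraries, 99.4%, were 98.4% at the stricter q, 97.0% with equal list length, 98.3% with a 5 kb gap, 96.4% in clusters from the CuNZ@Gel list and 99.4% to 100% without any 1 library. The number of clusters, 667, was 173 with a 5 kb gap, 1084 with 25 kb, 1307 with 6 or more intervals and 393 with 10 or more. For that scaling, expected summit fragments were rounded and the lowest −log10 p of CuNZ@Gel replicate 2, 3.41, was applied to all lists; this keeps peak widths as deposited, so covered bases were not computed there.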

Other observations

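Clusters close to each other did not share their retention. Among 140 pairs of neighbouring dense clusters with a gap of up to 100 kb, retention had a Spearman correlation of 0.0629 and a median difference of 11.2 percentage points, where the 259 neighbouring pairs more than 1 Mb apart differed by a median of 11.3. In all, 246 of the 667 clusters lay within 100 kb of another. The pair of near neighbours that differed most was on chromosome 4: the cluster at chr4:149120454-149165717 kept 19.7% and the one at chr4:149248263-149276707, 82.5 kb further on, kept 93.0%. Another pair, starting at 123235067 and 123273425 on chromosome 8 with a gap of 15.2 kb, kept 27.2% and 78.8%. A pair starting at 190787474 and 190911577 on chromosome 1, with a gap of 27.9 kb, kept 39.3% and 84.6%. These pairs were picked by their values.

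Peak number and covered bases moved apart in 4 dense clusters, where both CuNZ@Gel libraries had more peaks than both Gel libraries but fewer bases under them. At chr8:85691738-85717695, a cluster filled to 62.1% by its intervals, the peak numbers were 11 and 11 in Gel and 15 and 15 in CuNZ@Gel, and the bases were 16707 and 17102 bp against 14211 and 13023 bp. All 11 of its Gel intervals were kept. At chr5:66224239-66247739, 8 and 9 Gel peaks stood against 10 and 10 in CuNZ@Gel, with 7112 and 6969 bp against 4190 and 3036 bp. The other two lay at chr17:56238539-56281342, with 8 and 8 peaks against 11 and 9, and at chr19:53291775-53321361, with 7 and 10 against 12 and 12.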
